A study of Mus musculus with 8 samples.

Results

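Cyclic nucleotide phosphodiesterases are the enzymes that hydrolyse cAMP and cGMP and so end the signal that adenylyl and guanylyl cyclases start. The genes described here were all those on the array among 10 named phosphodiesterases, the calcium/calmodulin-dependent Pde1a, Pde1b and Pde1c, the cGMP-inhibited Pde3b, the cAMP-specific Pde4a, Pde4b, Pde4d, Pde7a and Pde8a, and the dual-specificity Pde10a. They were taken by gene symbol, every probe that carried a symbol was kept, and this gave 17 of the 25697 probes and 10 of the 18120 gene symbols. RNA came from STHdh striatal cells, a conditionally immortalized line of mouse striatal neuronal progenitors carrying the wild-type form of the Huntington's disease gene. Of the 8 cultures, 4 were transfected with Bcl11b, a zinc finger transcription factor of striatal neurons, and 4 with the empty plasmid pcDNA3.1 (mock), and RNA was taken 2 days later. The labels call the control wild-type as well, and apart from the plasmid both groups were the same line. The study asked which genes respond to Bcl11b in striatal cells, and each culture was hybridized to 1 Illumina MouseRef-8 v2 array, on which many beads carry the same probe and their brightness is averaged into 1 signal.

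In the striatum, dopamine and adenosine receptors raise or lower cAMP in the projection neurons, and phosphodiesterases set how long and how far that signal travels. Pde1b and Pde10a are known for their strong expression in these neurons, and Pde1 enzymes tie cyclic nucleotide breakdown to calcium through calmodulin. Pde4, Pde7 and Pde8 enzymes act on cAMP, while Pde1 and Pde10 enzymes act on both cAMP and cGMP.

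A probe was called detected where the detection p-value deposited with it, which sets its signal against negative control beads, was under 0.01. Between 10121 and 10784 probes were detected per array, with similar numbers in both groups. Before normalization the arrays of mock cells were the brighter ones, with median deposited signals of 31.6 to 53.9 against 20.1 to 30.2 for Bcl11b-transfected cells. Values below are log2 of the quantile-normalized signal unless called deposited signals, and a difference is Bcl11b minus mock on that log2 scale. The signal of a probe depends on its sequence, so values are compared between groups for each probe and never between genes. The study describes the arrays as separate sets of transfected cells, and the p-values measure the spread between those sets. The precision was limited by the number of arrays. The only probe for Bcl11b itself, ILMN_2611022, was detected on 0 of the 8 arrays and so does not check the transfection. The plasmid held a Bcl11b cDNA, and whether the probe lies within it was not analysed here, since the files do not give the probe's position.

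Probes from the lists of neural progenitor and mesenchymal markers were detected in these cells, and none from the list of striatal projection neuron markers was. Of the neural progenitor list, all 5 probes for Nes, Sox2 and Vim were detected on all 8 arrays, and 5 of 8 probes for mesenchymal genes were detected on at least 1 (Acta2, Col1a1 and Col3a1). The mesenchymal genes Col1a2 and Thy1 and another Col3a1 probe were detected on no array. Of 11 probes for striatal projection neuron genes, among them Ppp1r1b, Drd1a, Drd2, Adora2a and Tac1, 0 were detected on any array, and the same held for 0 of 7 probes for general neuronal genes, 0 of 6 for oligodendrocytes and 0 of 7 for microglia. Some genes known from striatal neurons that are not on that list were detected on all 8 arrays, such as Pde1b. The G protein subunit gene Gng7 was detected on all 8 through probe ILMN_3103233, while its other probes were detected on no array. Adcy5, Pde2a, Pde7b and Pde9a, also known from the striatum, had no detected probe. By PCR the study found Ppp1r1b, Rgs9 and Bcl11b of that list expressed in these cells. An undetected probe therefore does not show that a gene was silent. For astrocytes, 1 of 7 probes was detected (Slc1a3, on 3 mock arrays and 1 Bcl11b array). The summed deposited signal of the progenitor list ranged over 25010-28407 in mock cells and 16936-29412 in Bcl11b-transfected cells, and that of the striatal neuron list over 180.1-357 and 94.5-216, on arrays that differed in brightness. Among the progenitor probes, 1 for Sox2 differed by -0.71 and 1 for Nes by 0.43 at an unadjusted p-value under 0.05, while a second probe of each gene gave 0.20 and -0.00071. In RNA from whole cultures, fewer cells of a type and less RNA per cell cannot be told apart.

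Of the 17 phosphodiesterase probes, 9 probes of 7 genes were detected on at least 1 array, and 5 of them on all 8. Messages for Pde1a, Pde1b and Pde8a were lower in Bcl11b-transfected cells, by between 33.4% and 38.7% per probe. That for Pde10a was lower too, but it was detected on only 1 of the 4 Bcl11b arrays, so no percentage is given, and its call was lost without any of 7 of the 8 arrays. That for Pde4d was higher by 0.33 on the log2 scale on 1 of its probes. At an unadjusted p-value under 0.05 (limma), 7 of the 9 detected probes differed, 6 lower and 1 higher. At the same limit 17.7% of all 11755 detected probes differed, 12.5% lower and 5.16% higher, and 10.4% of all 25697 probes did. The 3 probes of Pde1a are not independent of each other, so the 6 lower probes stand for 4 genes. At an adjusted p-value under 0.10 (limma, Benjamini-Hochberg over all probes), 1 of the 9 passed, a Pde1a probe, against 1.67% of all detected probes and 0.981% of all probes. The groups did not overlap for 6 of the 9 detected probes, against 10.1% of all detected probes. The median difference of the 9 probes was -0.63, and that of all detected probes was -0.016. The 10 genes were chosen with earlier results of these data known, so these shares and medians describe them and carry no test. All 7 probes under the unadjusted limit also passed the fold limit of the study's methods.

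**Figure D1:**
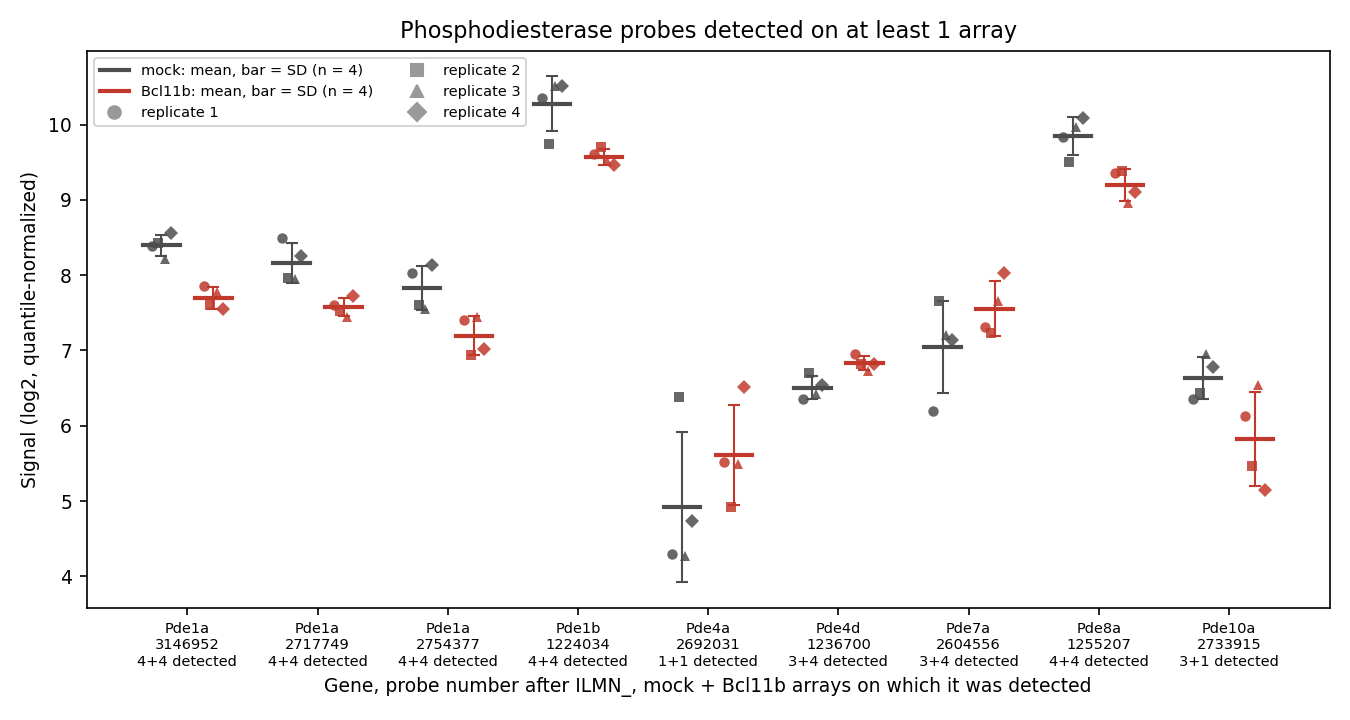
Log2 quantile-normalized signal (vertical axis) of the 9 phosphodiesterase probes detected on at least 1 array, 1 point per array with the marker giving the replicate number, mock in grey and Bcl11b in red, and the mean with its SD (n = 4) as bars. The 3 Pde1a probes, Pde1b and Pde8a lay lower on every Bcl11b array than on every mock array, with mock replicate 2 of Pde1b at 9.74 just above the highest Bcl11b array at 9.70, and Pde4d lay higher.

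The stretch before the start of each gene is shown for the genes whose probes passed the unadjusted limit, Pde1a, Pde1b, Pde8a and Pde10a, which were lower, and Pde4d, which was higher, a choice made after their values were seen. The sequences are from RefSeq (GRCm38.p6), and 21 start sites of 8 of the 10 genes were listed, while Pde3b and Pde7a had none. Each window is the 250 bases before the start, 5′ to 3′ on the strand of the gene, and where a gene has several starts the most upstream is given. They lie at chr2:80129413-80129662 on the minus strand, chr15:103502784-103503033 on the plus strand, chr7:81213015-81213264 on the plus strand, chr17:8801495-8801744 on the plus strand and chr13:108653927-108654176 on the plus strand. Capitals mark TGACG, the core of the cAMP response element, and ACCACA, a hexamer that the study derived from its Bcl11b binding regions, each on either strand.
Pde1a: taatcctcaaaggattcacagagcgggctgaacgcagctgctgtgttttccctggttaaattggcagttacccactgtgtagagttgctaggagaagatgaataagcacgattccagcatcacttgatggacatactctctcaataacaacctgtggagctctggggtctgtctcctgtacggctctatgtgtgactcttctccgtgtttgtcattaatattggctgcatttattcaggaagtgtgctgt
Pde1b: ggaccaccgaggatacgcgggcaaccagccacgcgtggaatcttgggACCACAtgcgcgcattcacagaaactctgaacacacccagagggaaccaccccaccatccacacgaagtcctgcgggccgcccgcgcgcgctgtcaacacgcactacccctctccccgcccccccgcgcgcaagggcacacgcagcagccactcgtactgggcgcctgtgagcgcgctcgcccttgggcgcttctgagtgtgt
Pde8a: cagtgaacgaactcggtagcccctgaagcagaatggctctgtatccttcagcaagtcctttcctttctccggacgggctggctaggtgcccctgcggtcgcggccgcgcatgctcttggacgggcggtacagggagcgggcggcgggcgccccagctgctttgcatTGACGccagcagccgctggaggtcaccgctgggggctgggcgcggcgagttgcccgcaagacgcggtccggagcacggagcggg
Pde10a: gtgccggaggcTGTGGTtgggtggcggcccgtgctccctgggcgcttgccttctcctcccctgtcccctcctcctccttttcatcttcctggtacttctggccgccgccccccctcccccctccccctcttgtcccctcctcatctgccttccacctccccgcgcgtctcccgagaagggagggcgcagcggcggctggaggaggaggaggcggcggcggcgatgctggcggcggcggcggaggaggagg
Pde4d: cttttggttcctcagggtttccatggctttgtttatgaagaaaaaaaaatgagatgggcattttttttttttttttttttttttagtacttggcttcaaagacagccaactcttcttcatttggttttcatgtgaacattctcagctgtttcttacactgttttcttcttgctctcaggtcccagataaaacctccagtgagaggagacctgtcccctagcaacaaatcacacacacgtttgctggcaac

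In these windows, TGACG was found once, in Pde8a, from 84 to 80 bases before the start. ACCACA was found once in Pde1b, from 203 to 198 bases before the start, and once in Pde10a on the opposite strand, from 239 to 234. The printed windows of Pde1a and Pde4d held neither. Among the windows not printed, 1 of Pde1a held TGACG and another of Pde1a held ACCACA at 2 places. The next window of Pde1b and that of Pde10a held ACCACA as well. Over all 21 windows of the 8 genes, 9 (42.9%) held ACCACA and 4 (19.0%) held TGACG, where 14% and 17.8% of all 32851 windows of that length did. The windows with ACCACA belonged to 6 genes, Pde1a, Pde1b, Pde10a, Pde1c, Pde4a and Pde4b, and none to Pde8a or Pde4d. Of these 6 genes, Pde1c and Pde4b had no detected probe. Those with TGACG belonged to 4 genes, Pde1a, Pde4a, Pde4b and Pde8a. Shares were computed per window and not per gene, so the counts of genes have no background share beside them. The study proposes that most Bcl11b binding sites lie far from proximal promoters. It also lists TGTGGT, the reverse complement of ACCACA, as a motif of another factor, AML1. Whether Bcl11b binds any of these windows was not tested. Of the other hexamers named in the study, TGCTTG was in 2 of the 21 windows and in 13.7% of all windows, AGTGCT in 3 and 12.6%, and GGATCA in 1 and 7.60%. Both spellings of a further one, AGAGTG and AGTGTG, were in 1 and 5 of the 21 windows and in 13.6% and 14.3% of all windows, and AGTGTG was in the printed windows of Pde1a, from 10 to 5 bases before the start, and Pde1b, from 7 to 2. The motifs do not overlap one another in the printed windows, both strands were searched, and a gene with several starts counts several times among the 21. The windows differed in base composition, with a GC content of 67.2% for Pde1b, 68.8% for Pde8a and 72.8% for Pde10a, 46.0% for Pde1a and 38.8% for Pde4d, where the median of all windows was 52.4%. Probes are named in the files by symbol alone, so which start serves the transcript that a probe reads was not analysed here.

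Pde1a, which encodes a calcium/calmodulin-activated enzyme, was lower on all 3 of its probes, and each of the 3 was detected on all 8 arrays. Probe ILMN_3146952 gave 8.38, 8.43, 8.22 and 8.56 on mock arrays 1 to 4 and 7.86, 7.60, 7.77 and 7.56 on Bcl11b arrays 1 to 4. The groups were well separated, with 8.22 and 7.86 as the nearest values. The difference was -0.70 ± 0.098 (standard error), a signal 38.5% lower, with an adjusted p-value of 0.0573 (limma, Benjamini-Hochberg over 25697 probes). With 1 array left out at a time, its difference stayed between -0.76 and -0.65, but the adjusted p-value was under 0.10 only without mock replicate 2 (0.0796) or mock replicate 3 (0.0868), and between 0.101 and 0.170 without any of the other 6.

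Probe ILMN_2717749 of Pde1a gave 8.49, 7.96, 7.95 and 8.26 on the mock arrays and 7.61, 7.52, 7.45 and 7.73 on the Bcl11b arrays, and the groups again did not overlap. Its difference was -0.59 ± 0.14, with an adjusted p-value of 0.202 (limma). Probe ILMN_2754377 gave 8.03, 7.61, 7.55 and 8.13 on the mock arrays and 7.40, 6.94, 7.44 and 7.02 on the Bcl11b arrays, where mock replicates 2 and 3 lay just above Bcl11b replicates 1 and 3. Its difference was -0.63 ± 0.19, with an adjusted p-value of 0.309 (limma). The 3 probes of Pde1a therefore had the same direction, with differences from -0.70 to -0.59, and the unadjusted p-value stayed under 0.05 for each of them with any 1 array left out.

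Pde1b encodes the calcium/calmodulin-activated enzyme known from striatal projection neurons, and its single probe ILMN_1224034 was detected on all 8 arrays. It gave 10.36, 9.74, 10.51 and 10.51 on mock arrays 1 to 4 and 9.61, 9.70, 9.51 and 9.46 on Bcl11b arrays 1 to 4. Mock replicate 2 stood apart from the other 3 mock arrays and lay just above the highest Bcl11b array. The mean was 10.28 ± 0.37 in mock cells and 9.57 ± 0.11 in Bcl11b-transfected cells (SD, n = 4 each), a difference of -0.71 ± 0.19 (standard error) or a signal 38.7% lower. The adjusted p-value was 0.241 (limma). Without mock replicate 2 the difference was -0.89 and the adjusted p-value 0.0191, while with any other array left out the adjusted p-value lay between 0.309 and 0.521.

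In deposited signals, before any normalization, Pde1b gave 2004, 738, 1829 and 1934 on the mock arrays and 647, 630, 415 and 636 on the Bcl11b arrays. Mock replicate 2 again lay next to the Bcl11b arrays. Mock replicate 2 also had the lowest median deposited signal of the mock arrays (31.6).

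Pde8a encodes a cAMP-specific enzyme of high affinity, and its single probe ILMN_1255207 was detected on all 8 arrays. It gave 9.83, 9.51, 9.96 and 10.08 on the mock arrays and 9.36, 9.39, 8.95 and 9.10 on the Bcl11b arrays. The groups did not overlap, and mock replicate 2 was again the lowest of the mock arrays. The difference was -0.65 ± 0.16, a signal 36.2% lower, with an adjusted p-value of 0.211 (limma). Without mock replicate 2 it was -0.77 with an adjusted p-value of 0.0877, and between 0.273 and 0.456 with any other array left out.

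Pde10a encodes the dual-specificity enzyme that marks striatal projection neurons, and its single probe ILMN_2733915 was dim here, detected on 3 mock arrays and on 1 Bcl11b array. It gave 6.35, 6.44, 6.95 and 6.77 on the mock arrays and 6.12, 5.47, 6.54 and 5.15 on the Bcl11b arrays. Bcl11b replicate 3, the array of that group on which it was detected, lay above mock replicates 1 and 2, so the groups overlapped. The fitted difference was -0.81 ± 0.33, with an unadjusted p-value of 0.0486 and an adjusted p-value of 0.475 (limma), and since 3 of the 4 Bcl11b values lay below the detection limit it does not measure the size of a change. Its unadjusted p-value was 0.0116 without Bcl11b replicate 3 and lay between 0.0556 and 0.114 without any of the other 7 arrays, 4 mock and 3 Bcl11b.

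Of the cAMP-specific Pde4 genes, a probe of Pde4d was the only one of the 17 probes of the 10 genes that rose at the unadjusted limit. Probe ILMN_1236700 gave 6.35, 6.70, 6.42 and 6.54 on the mock arrays, on 3 of which it was detected, and 6.96, 6.81, 6.73 and 6.82 on the Bcl11b arrays, on all of which it was detected. The groups did not overlap, with mock replicate 2 at 6.70 next to Bcl11b replicate 3 at 6.73. The difference was 0.33 ± 0.087, with an adjusted p-value of 0.250 (limma) and of 0.0897 without mock replicate 2. Its direction rested on the scaling between arrays, since without normalization the difference was -0.41, where the median of all detected probes was -0.68.

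A second probe of Pde4d, ILMN_1215021, was not detected on any array, and its deposited signal lay between 2.52 and 24.0. Pde4a had 4 probes, of which ILMN_2692031 was detected on 1 mock array (replicate 2) and 1 Bcl11b array (replicate 4). It gave 4.29, 6.38, 4.27 and 4.73 on the mock arrays and 5.52, 4.92, 5.49 and 6.51 on the Bcl11b arrays. The groups overlapped widely, and the difference of 0.69 ± 0.58 had an adjusted p-value of 0.802 (limma). Without mock replicate 2 the difference was 1.17, with an unadjusted p-value of 0.0282 and an adjusted p-value of 0.291, and without normalization it was -0.061.

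Pde7a, which encodes another cAMP-specific enzyme, was detected on 3 mock and all 4 Bcl11b arrays through probe ILMN_2604556. It gave 6.20, 7.66, 7.20 and 7.14 on the mock arrays and 7.31, 7.23, 7.66 and 8.03 on the Bcl11b arrays. The groups overlapped, and mock replicate 1, the array on which it was not detected, was the lowest of all. The difference was 0.50 ± 0.35 with an adjusted p-value of 0.744 (limma), its 95% interval ran from -0.33 to 1.33, and without normalization the difference was -0.25. Without mock replicate 1 it was 0.22.

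**Figure D2:**
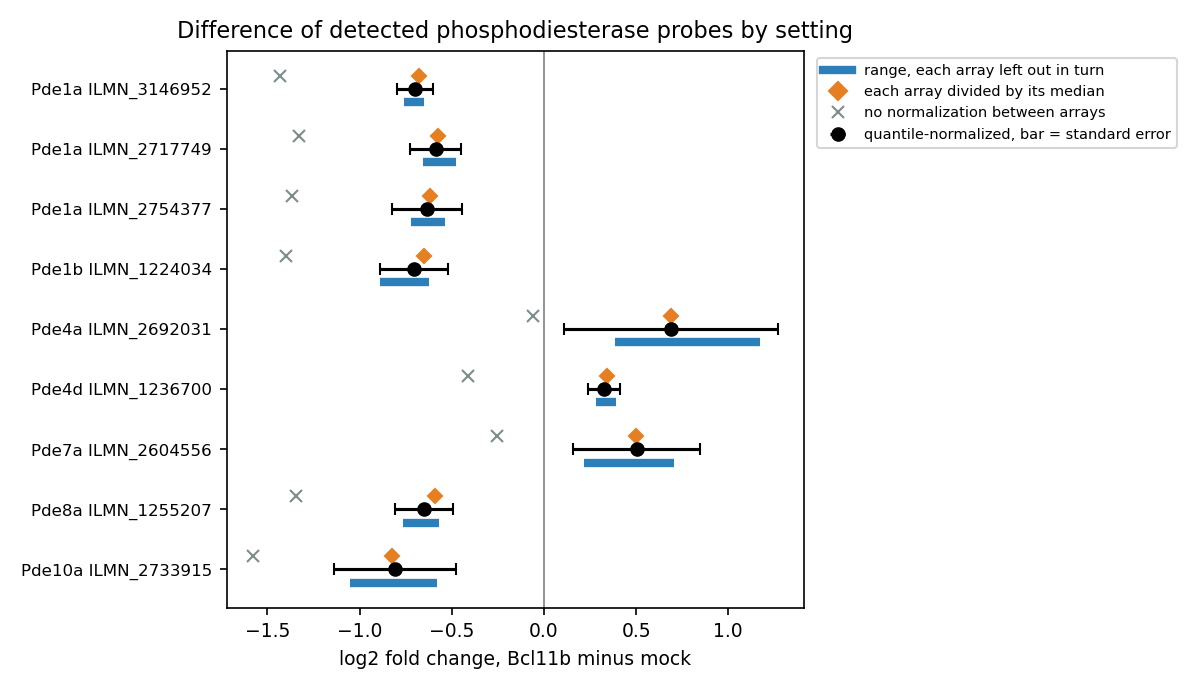
Log2 fold change of Bcl11b against mock (horizontal axis) for the 9 detected probes, with the quantile-normalized value and its standard error in black, the range over leaving out each of the 8 arrays in blue, division by the array median in orange and no normalization as grey crosses. The 6 probes of Pde1a, Pde1b, Pde8a and Pde10a stayed below 0 throughout, while Pde4a, Pde4d and Pde7a crossed 0 without normalization.

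The remaining 8 probes were detected on no array, among them all probes of 3 genes, Pde1c (2 probes), Pde3b and Pde4b, together with 3 of the 4 Pde4a probes and 1 of the 2 Pde4d probes. Pde1c is the third of the calcium/calmodulin-dependent genes, Pde3b is known for ending cAMP signals in response to insulin, and Pde4b is a cAMP-specific enzyme of many brain regions. The Pde4b probe ILMN_2697552 had deposited signals of 35.5, 19.7, 27.0 and 80.2 on the mock arrays and 12.4, 23.7, 14.9 and 39.4 on the Bcl11b arrays. Its detection p-value was 0.0150 on mock replicate 4, the nearest to the limit among the 8 probes, followed by 0.0376 on Bcl11b replicate 4, and it was at least 0.0977 on the other arrays. For Pde3b the deposited signals lay between -13.0 and 19.0 and were at or below 0 on 4 arrays. For Pde1c they lay between -6.83 and 14.1 on probe ILMN_3141964 and were below 0 on all 8 arrays on probe ILMN_2632435. No fold change is given for these 8 probes, and 0 of them had an unadjusted p-value under 0.05 (limma). They were not well above background at this sensitivity, which does not show that the genes were silent.

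**Figure D3:**
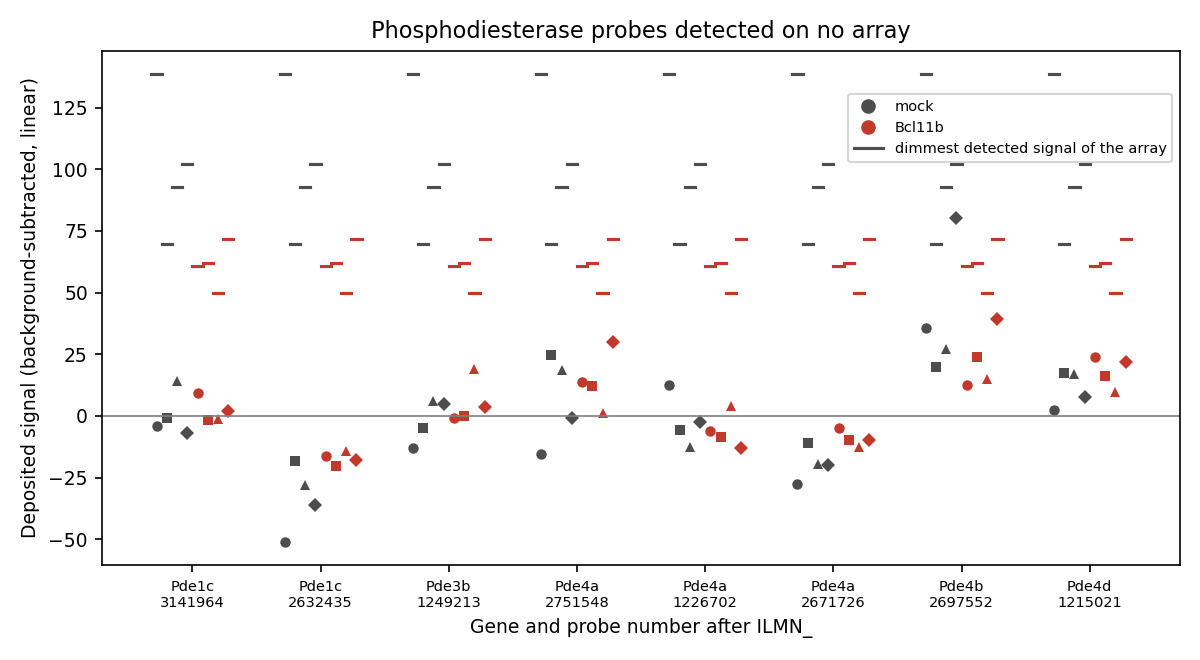
Deposited background-subtracted signal on a linear scale (vertical axis) of the 8 phosphodiesterase probes detected on no array, 1 point per array (circle, square, triangle and diamond for replicates 1 to 4), mock in grey and Bcl11b in red, with short lines for the dimmest detected signal of the same array. Most signals scattered around 0, and the closest approach to the line was the Pde4b probe on mock replicate 4 at 80.2, where the line stood at 102.

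The profile of Pde1b over the 8 arrays was also compared with the 9359 probes of other genes detected on all of them, each centred on its own mean, by the root mean square difference in log2 signal. The most similar were Ptpn1 (0.069), Siah2 (0.079), Epn2 (0.081), Mutyh (0.084) and 6030419C18Rik (0.087). Like Pde1b, each of these had its lowest mock value on mock replicate 2, for example 8.46 for Ptpn1 against 9.27, 9.38 and 9.32 on the other mock arrays. Pde8a came at rank 25 (0.12), and the 3 Pde1a probes at ranks 724, 925 and 1105 (0.26 to 0.29). Pde8a therefore followed Pde1b closely over the 8 arrays, while Pde1a, although lower by a like amount, had another order of mock arrays. Likeness over 8 arrays is a description that reads the group difference and the array differences together, and it carries no test.

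For the other genes of cyclic nucleotide signalling, across 6 lists, 43 probes were detected on at least 1 array, of which 9 were lower and 3 were higher at an unadjusted p-value under 0.05 (limma), and 0 passed the adjusted limit of 0.10. The background for these counts is the same 12.5% lower and 5.16% higher as above. The lists are described beside the members with no test of the difference between them.

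Among the cyclases, which make cAMP and cGMP, 4 probes of 4 genes were detected out of 23, and 2 were lower, with a list median of -0.27. Npr2, the receptor guanylyl cyclase for C-type natriuretic peptide, differed by -0.36 ± 0.10 and adenylyl cyclase Adcy9 by -0.47. The groups overlapped for both, with adjusted p-values of 0.286 and 0.379 (limma). Adcy6, a calcium-inhibited adenylyl cyclase, gave 0.21 ± 0.20 and did not pass (adjusted p-value 0.802, limma), and it was -0.48 without normalization. Adcy5, the main adenylyl cyclase of the adult striatum, had no detected probe, though the study found it expressed in these cells by PCR.

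Among the effectors, 9 of 24 probes were detected, with 2 lower, 1 higher and a median of -0.22. Prkacb, a catalytic subunit of cAMP-dependent protein kinase (PKA), gave -0.086 ± 0.13 and Prkaca gave -0.41 on probe ILMN_2833376 but -0.061 on ILMN_2833378, so the probes of Prkaca disagreed in size. The groups overlapped on both Prkaca probes. Hcn2, a channel opened by hyperpolarization and cAMP, differed by -0.69 with overlapping groups. Hcn3 was detected on 0 mock arrays and 2 Bcl11b arrays and had the lowest p-value of the list (unadjusted 0.00658, adjusted 0.227, limma), but its bright group did not exceed the dimmest detected signals of the mock arrays, so no fold is given.

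Among the PKA anchors and calmodulin genes, 14 of 28 probes were detected and 4 were lower, with a median of -0.067. Akap8l, a nuclear anchoring protein family member, gave 9.40, 9.07, 9.85 and 9.27 on the mock arrays and 8.78, 8.66, 8.44 and 8.63 on the Bcl11b arrays. The groups did not overlap, and the difference was -0.77 ± 0.18 with an adjusted p-value of 0.188 (limma). Of 3 detected Akap9 probes, 2 were lower (-0.36 and -0.33) and the third gave 0.22. Akap7 was lower by 12.8% (difference -0.20), with overlapping groups and an adjusted p-value of 0.435 (limma). Calm3, 1 of the genes for calmodulin, the activator of Pde1 enzymes, gave -0.13 ± 0.087 and did not pass, and it was 0.094 with division by the array median.

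Among the cAMP-responsive factors and the substrates and inhibitors of PKA, 5 of 22 probes were detected and 1 was lower, with a median of -0.22. This was Arpp19, a small PKA substrate, at -0.42 ± 0.14 with overlapping groups (adjusted p-value 0.351, limma). The PKA inhibitor gene Pkia gave -0.15 ± 0.15. Among the G proteins of cyclase control, 5 of 12 probes were detected and 0 passed in either direction, with a median of 0.18. Gnai2, an inhibitory G protein subunit, gave 0.58 ± 0.46 and Gnb1 gave 0.18 ± 0.21, and without normalization these were -0.014 and -0.37. Without mock replicate 3 Gnai2 gave 0.20, and Gnb1 gave 0.036 without mock replicate 1 and 0.035 without Bcl11b replicate 4.

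Among the other genes with a phosphodiesterase symbol, 6 of 19 probes were detected, 0 were lower and 2 were higher, with a median of 0.19. Pde4dip is not an enzyme but a scaffold protein that binds Pde4d, and it gave 8.29, 8.09, 8.54 and 8.15 on the mock arrays and 8.83, 9.03, 8.61 and 9.01 on the Bcl11b arrays. The groups did not overlap, and the difference was 0.61 ± 0.13 with an adjusted p-value of 0.181 (limma), though it was -0.12 without normalization. Pde6d, a carrier of prenylated proteins named for its binding to the retinal enzyme, gave 0.27 ± 0.16 on its brightest probe and did not pass on any of its 4 probes. Pde6a was detected on 1 Bcl11b array only and its bright group did not exceed the dimmest detected signals of the mock arrays, so no fold is given. None of Pde2a, Pde7b and Pde9a, phosphodiesterases known from the striatum, had a detected probe.

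**Figure D4:**
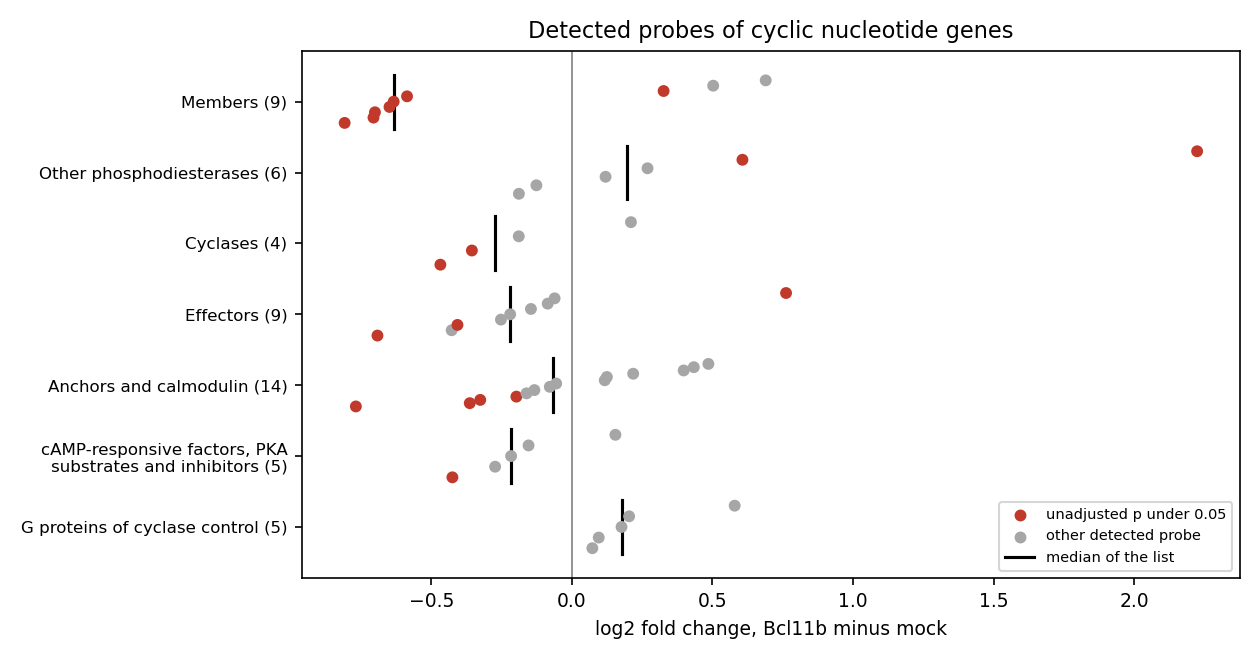
Log2 fold change of Bcl11b against mock (horizontal axis) of every detected probe of the 10 phosphodiesterases (Members) and of 6 lists of cyclic nucleotide genes, with the number of probes in brackets, probes with an unadjusted p-value under 0.05 in red and the list median as a black line. The members had the lowest median (-0.63) against -0.27 to 0.19 for the other lists. Members and lists were chosen with earlier results of these data known, so the medians are a description without a test. The rightmost red points of the other phosphodiesterases (Pde6a) and of the effectors (Hcn3) come from probes detected on 0 mock arrays, for which no fold is given.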

How the data were processed

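RNA of 8 cultures of STHdh cells was hybridized to Illumina MouseRef-8 v2 arrays, and the authors deposited 1 intensity per probe and array, the average bead signal after background subtraction (GenomeStudio, per the labels) without normalization between arrays, together with a detection p-value per probe. Negative signals are therefore possible, and dim probes depend on the floor. Quantile normalization of the deposited signals came first, then a floor of 1 and the log2, and limma (3.58.1, under R 4.3.3) was fitted by lmFit and default eBayes to all 25697 probes without covariates, with Benjamini-Hochberg adjustment. The adjusted limit of 0.10 and the unadjusted limit of 0.05, with a minimum fold, follow the study. The study's own values differed, since its limma analysis listed Pde1b as lower with a false discovery rate under 0.10. It listed Pde10a as lower too, with a rate above 0.10. Groups and replicate numbers came from the labels. No probe is named beyond the symbol of the deposited table. All probes of the 10 genes are reported, and from each pathway list the detected probe with the lowest p-value and the one with the highest mean are named, with further probes chosen after their values were seen. The members and lists were chosen with earlier results of these data known. The code was tested on simulated data. Alternatives were no normalization, scaling to the array median, an offset of 16, neqc, detection filters at 0.01 and 0.05 on 4 arrays, a detection limit of 0.05, the fold limit, a replicate block, limma-trend, arrayWeights and leaving out each array. Protein levels and the binding experiments of the study were not analysed here.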

Additional observations from a re-analysis of the deposited data

How the results depend on the processing

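The differences of the 3 Pde1a probes, Pde1b and Pde8a kept their sign and an unadjusted p-value under 0.05 (limma) under each of 9 other settings and with each of the 8 arrays left out. With the detection filters, the replicate block and limma-trend these differences are fixed by construction, so only the p-values could change there. Their size moved without normalization, to -1.43, -1.33 and -1.37 for the Pde1a probes, -1.40 for Pde1b and -1.34 for Pde8a, with -1.58 for Pde10a, where the median difference of all detected probes was -0.68. The number of lower phosphodiesterase probes stayed between 5 and 6 throughout, the probe lost being Pde10a. The number past an adjusted p-value of 0.10, 1 as reported, was 0 without normalization, 0 with division by the array median, 0 with limma-trend and 2 with arrayWeights, and ran from 0 to 4 with 1 array left out, the 4 without mock replicate 2. With the replicate number as a block it was 0, and the adjusted p-value of Pde1a probe ILMN_3146952 was 0.272 (limma). Same-numbered mock and Bcl11b arrays deviated from their group means with correlations of 0.68, -0.63, 0.18 and 0.70 over 9360 probes. Differently numbered arrays gave correlations from -0.77 to 0.58. Whether same-numbered cultures were handled as pairs was not tested. The number of higher phosphodiesterase probes, 1 as reported, was 0 without normalization and 1 to 2 with 1 array left out. For the pathway lists, 9 lower probes became 29 without normalization, 4 with division by the array median and 5 with the replicate block. With 1 array left out they became 3 to 8. The 3 higher probes became 0 without normalization, 1 with the filter at 0.01 and 3 to 4 with 1 array left out. Without normalization and with division by the array median, the lower count of the lists moved in the same direction as that of all detected probes. The share of all detected probes that were lower was 12.5% as reported and 48.4% without normalization. That share was 7.88% with division by the array median, 12% with the replicate block and 8.3% to 15.5% with 1 array left out. With the replicate block the count of the lists fell while the share hardly moved. Without mock replicate 2 the count fell to 6 while the share rose to 15.5%. Of all detected probes, 607 were higher as reported and 36 without normalization. Without normalization the sign turned for Pde4a (-0.061), Pde4d (-0.41), Pde7a (-0.25), Pde4dip (-0.12), Pde6d (-0.41), Adcy6 (-0.48), Gnai2 (-0.014) and Gnb1 (-0.37), where the median difference of all probes was -0.49. With division by the array median it turned for Prkacb (0.21) and Calm3 (0.094). With 1 array left out, differences that had not passed the test with all arrays ranged from 0.39 to 1.17 for Pde4a, 0.22 to 0.71 for Pde7a, 0.16 to 0.36 for Pde6d, 0.11 to 0.37 for Adcy6, -0.18 to -0.017 for Prkacb, -0.17 to -0.059 for Calm3, -0.27 to -0.043 for Pkia, 0.20 to 0.88 for Gnai2 and 0.035 to 0.27 for Gnb1. Over all probes the count past the adjusted limit was 252, 45 with the replicate block, 642 with arrayWeights and 637 without mock replicate 2, and the cause was not tested. Probes near the detection limit, Pde10a, Pde4a and Pde4d, have the least signal over background.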
